A study of Mus musculus with 6 samples.

Results

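The sarcomere is the contractile unit of striated muscle, and 40 genes that encode its parts, or proteins that mark fast or slow fibres, were read here in mouse brown adipose tissue, the fat depot that burns fuel to make heat. They were taken by name, as all probe sets whose platform gene symbol is on the list, which was drawn up with earlier results of these data known. Of the 40 genes, 37 had at least 1 probe set of their own, 60 probe sets in all, out of 12393 genes and 20380 probe sets with 1 gene symbol. Mybpc1, Mybpc2 and Neb were not analysed here, and 2 further probe sets that Myh6 and Myh7 share were kept out of the tests.

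The tissue came from mice aged 3.5 months with a mixed C57BL6 and 129 background, all of which had received a high fat diet over 3 months. The 3 control samples were from YY1flox/flox mice, and the 3 YY1bKO samples were from YY1flox/flox; Ucp1Cre mice, in which Cre driven by the Ucp1 promoter, active in brown and beige fat cells, deletes the gene of the transcription factor YY1. Both groups therefore carry the floxed alleles, and cells that do not use the Ucp1 promoter, muscle fibres among them, are expected to keep an intact gene. Each sample was hybridised to 1 Affymetrix array, and values are log2 intensities, called levels. A difference is the mean level of the YY1bKO arrays minus that of the control arrays, with its SE, and each group has n = 3 arrays. A gene was called higher or lower at an adjusted p under 0.05, from limma's moderated test with Benjamini-Hochberg adjustment over all 12393 genes, or over all 20380 probe sets where probe sets were tested one by one. Every adjusted p is of this kind.

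Fast and slow skeletal fibres build the same sarcomere from different isoforms of myosin, troponin and tropomyosin. Myosin heavy and light chains form the thick filament, actin and tropomyosin the thin filament, and the troponin complex of a tropomyosin-binding (T), an inhibitory (I) and a calcium-binding (C) subunit switches it on. The slow isoforms of the myosin light chains and of troponin C are also those of the heart ventricle. Brown fat cells descend from precursors that they share with skeletal muscle, and brown fat lies against muscle in the body, so muscle transcripts are often found in this tissue.

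Transcripts of Yy1 itself stood at 9.90, 9.62 and 9.95 in control replicates 1, 2 and 3 and at 8.38, 8.41 and 8.38 in the YY1bKO arrays, so every array matched its label. Control replicate 2 stood apart from all others: 268 genes lay at least 2-fold above their level in each of the other 5 arrays there, against 1 to 8 in any other array. Of these 268 genes, 15 were among the 37 sarcomere genes and 40 among 61 further muscle genes listed for excitation-contraction coupling, the Z-disc and M-band, and muscle metabolism. Calls are therefore given with all 6 arrays and, for each list, also without control replicate 2. The levels of the members that the results turn on are given array by array. Control replicate 2 was thus set aside on values of muscle genes, members among them. Fits without it narrow the control spread of such genes, so their p-values and counts describe the arrays left and are no independent test.

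YY1 is a zinc-finger factor that binds DNA with the core CCATNTT, and in muscle cells it is known to share sites on muscle gene promoters with serum response factor, which binds the CArG box. The 250 bases before the annotated start of 4 members are shown because they differ in these 2 motifs: Acta1 and Myh4 hold a CArG box that overlaps a YY1 core, Myl3 holds a CArG box alone, and Tnnc1 holds neither. The sequences are RefSeq's, of build GRCm38.p6, written 5′ to 3′ on the strand of the gene, with bases of a CArG box or a YY1 core in capitals. Acta1 lies on the minus strand (chr8:123894776-123895025), and Myh4 (chr11:67237562-67237811), Myl3 (chr9:110763428-110763677) and Tnnc1 (chr14:31208062-31208311) lie on the plus strand.
Acta1: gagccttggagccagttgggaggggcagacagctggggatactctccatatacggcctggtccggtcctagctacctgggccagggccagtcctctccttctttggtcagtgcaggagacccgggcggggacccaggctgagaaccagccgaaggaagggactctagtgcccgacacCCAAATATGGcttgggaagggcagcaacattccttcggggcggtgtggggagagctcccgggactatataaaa
Myh4: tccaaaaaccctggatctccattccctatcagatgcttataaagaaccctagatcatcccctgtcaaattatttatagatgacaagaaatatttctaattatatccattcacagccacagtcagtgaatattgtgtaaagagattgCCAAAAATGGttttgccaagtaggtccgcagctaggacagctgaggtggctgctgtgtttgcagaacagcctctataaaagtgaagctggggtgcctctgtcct
Myl3: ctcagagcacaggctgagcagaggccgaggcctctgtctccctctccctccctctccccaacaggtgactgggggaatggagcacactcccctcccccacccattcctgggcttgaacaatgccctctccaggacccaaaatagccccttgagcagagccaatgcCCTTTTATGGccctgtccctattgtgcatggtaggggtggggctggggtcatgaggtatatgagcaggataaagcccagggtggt
Tnnc1: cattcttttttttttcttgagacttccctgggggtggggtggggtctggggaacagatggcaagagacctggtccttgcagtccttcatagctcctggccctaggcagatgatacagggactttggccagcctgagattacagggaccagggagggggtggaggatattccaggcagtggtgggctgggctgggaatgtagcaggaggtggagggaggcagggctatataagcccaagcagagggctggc
The CArG box of Acta1 began 73 bases before the start, that of Myh4 104 bases and that of Myl3 85 bases. Of the 40 genes, 32 had a promoter entry in the table, with 41 entries in all. On either strand, a YY1 core was found in 9 of the 41 entries and in 12.4% of all 32851 entries. A CArG box was found in 7 of the 41 and in 1.47% of all, and the 2 motifs overlapped in 2 of the 41 and in 0.177% of all. Entries of 1 gene can share bases: counted by gene, a YY1 core was found in 8 of the 32, a CArG box in 6 and the overlap in 2. The MEF2 consensus was found in 6 of the 41 and in 1.69% of all. The MCAT motif CATTCC was found in 11 of the 41 and in 12.6% of all, and the E-box CANNTG in 34 of the 41 and in 66.2% of all. These matches describe letters in a window of the genome, and the arrays hold no measure of binding.

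In the fit of all 6 arrays, 7 of the 37 sarcomere genes were called higher and 0 lower, where 18.3% of all genes were called, 10.2% higher and 8.09% lower. The 7 were 6 of the 9 genes of slow fibres and ventricle (Myh7, Tnnt1, Tnnc1, Tnni1, Myl2 and Myl3) and the atrial and embryonic light chain Myl4. None of the 11 genes of fast fibres and none of the 12 genes shared by fibre types was called. The median difference was 1.27 over the slow genes, 0.42 over the fast genes, 0.33 over the shared genes and 0.04 over all genes. The 7 called genes were also the only members whose 3 YY1bKO arrays all lay above all 3 control arrays, an order found in 22.8% of all genes. The reverse order, found in 15.7% of all genes, was seen in 0 members. Whether the response of slow genes differs from that of fast genes was not tested.

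**Figure D1:**
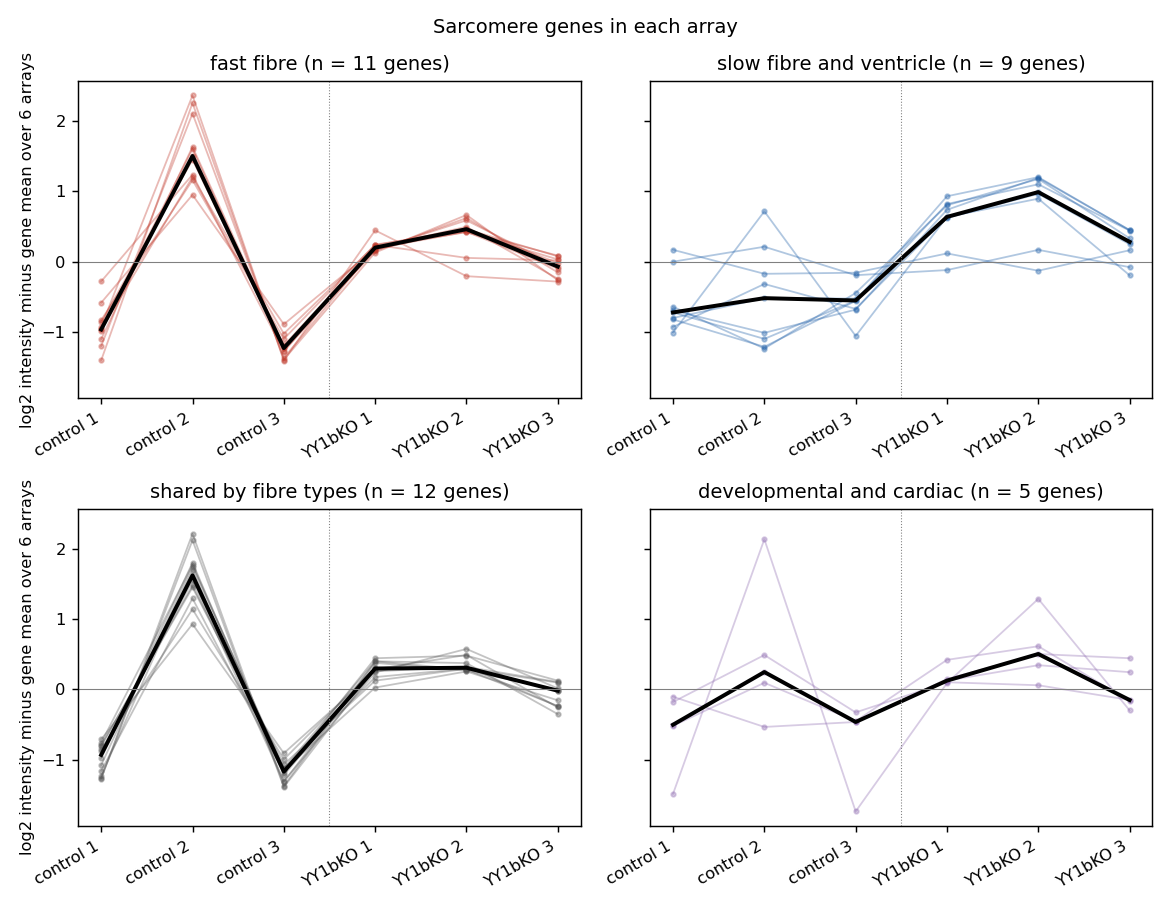
Level of each of the 37 sarcomere genes in each array, as log2 intensity minus the gene's mean over the 6 arrays (y axis), in 4 panels by role. Thin lines are genes and the thick black line is their median. Fast and shared genes peak in control replicate 2, with medians of 1.5 and 1.62. The median of the slow genes is low in all 3 control arrays, from -0.72 to -0.52, though single slow genes reach 0.17 in control replicate 1 and 0.72 in control replicate 2.

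Among slow genes, the largest rise was that of the thick filament's heavy chain. Myh7, the myosin heavy chain of slow fibres, had levels of 9.44, 9.06 and 9.71 in control replicates 1 to 3 and of 11.20, 11.47 and 10.71 in YY1bKO replicates 1 to 3. All YY1bKO arrays lay above all control arrays, and Myh7 was 3.30-fold higher (log2 difference 1.72 ± 0.23 SE, adjusted p = 0.0055). Of the 2 probe sets shared by Myh7 and Myh6, 1 showed 8.20, 8.01 and 8.49 in control and 9.87, 10.14 and 9.46 in YY1bKO arrays. Its difference of 1.59 was not tested. The other was at background, between 2.57 and 2.68 in all 6 arrays, with a difference of -0.02. Myh6, a cardiac heavy chain, had 2 probe sets of its own, both dim. The brighter was at background, between 3.33 and 3.73 in all 6 arrays.

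The slow light chains Myl2, which is regulatory, and Myl3, which is essential, rose as well. Myl2 levels were 9.32, 9.93 and 9.57 in control and 10.88, 11.23 and 10.53 in YY1bKO arrays, a 2.42-fold rise (1.27 ± 0.22 SE, adjusted p = 0.0113). Myl3 levels were 8.49, 8.77 and 8.76 in control and 9.91, 10.25 and 9.54 in YY1bKO arrays, a 2.34-fold rise (1.23 ± 0.19 SE, adjusted p = 0.0079). For both light chains the groups did not overlap, and all 3 probe sets of Myl3 were called higher.

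All 3 subunits of slow troponin rose together. Tnnt1, slow troponin T, was at 9.04, 8.73 and 9.06 in control and at 10.48, 10.93 and 10.19 in YY1bKO arrays, 3.01-fold higher (1.59 ± 0.20 SE, adjusted p = 0.0044). Tnni1, slow troponin I, was at 8.31, 7.71 and 8.50 in control and at 9.75, 10.12 and 9.28 in YY1bKO arrays, 2.91-fold higher (1.54 ± 0.27 SE, adjusted p = 0.0121). Tnnc1, troponin C of slow and cardiac muscle, was at 8.70, 8.32 and 8.87 in control and at 10.24, 10.52 and 9.86 in YY1bKO arrays, 2.98-fold higher (1.58 ± 0.20 SE, adjusted p = 0.0047). In each of the 3, as in Myh7, control replicate 2 was the lowest of the 6 arrays, YY1bKO replicate 2 the highest and YY1bKO replicate 3 the lowest of its group. Leaving out YY1bKO replicate 1 ended the Tnni1 call (adjusted p = 0.0510).

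**Figure D2:**
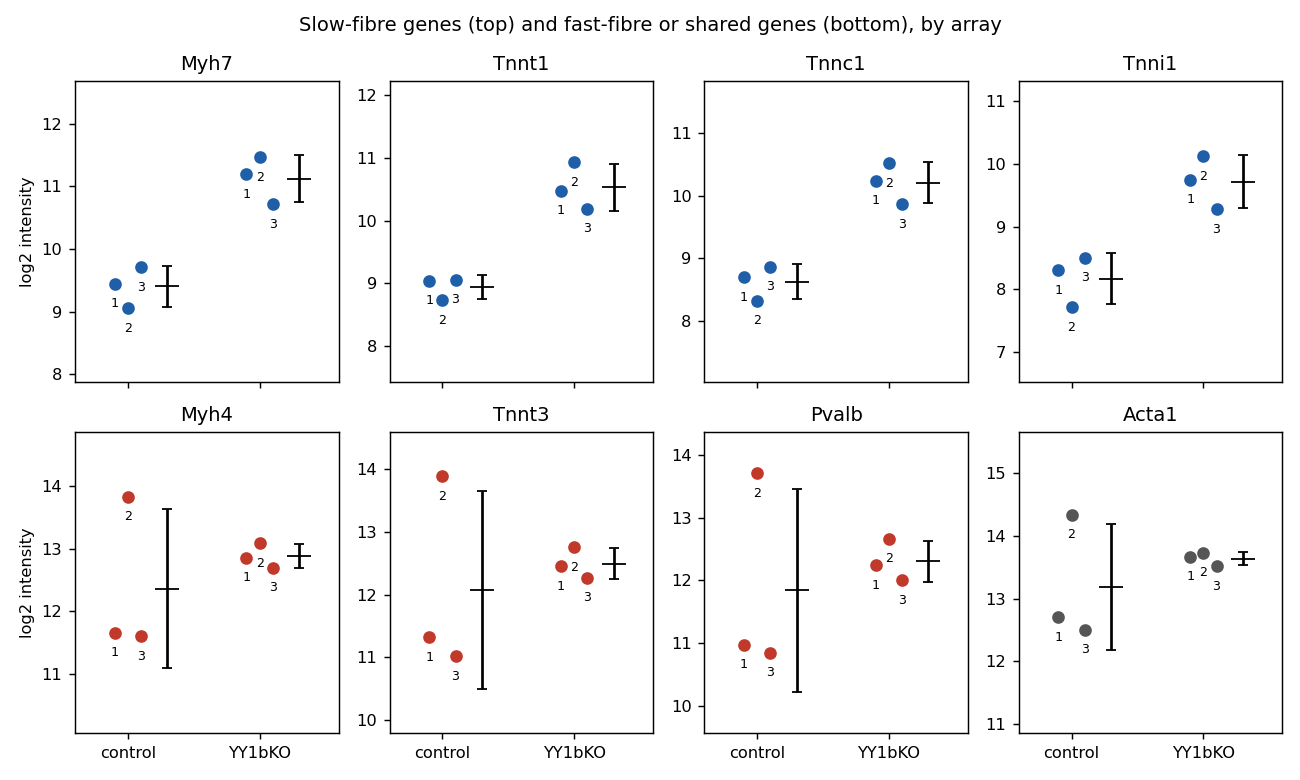
Log2 intensity (y axis) of 4 slow-fibre genes (top) and of 3 fast-fibre genes and the shared gene Acta1 (bottom) in each of the 6 arrays. Points are arrays numbered by replicate, and the bar beside them is the mean ± SD of the 3 arrays. For Myh7, Tnnt1, Tnnc1 and Tnni1 the groups are separate, whereas for Myh4, Tnnt3, Pvalb and Acta1 control replicate 2 lies above, and the other 2 control arrays below, all YY1bKO arrays.

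Tropomyosin lies along the thin filament, and Tpm3 gives both the slow-fibre protein and short forms made in many non-muscle cells. The brightest probe set of Tpm3, which stands for the gene in the gene fit, was level, at 10.20, 9.86 and 9.88 in control and 10.15, 9.90 and 10.19 in YY1bKO arrays (0.10 ± 0.13 SE, adjusted p = 0.6339). Of its 5 probe sets, 2 rose and 3 did not pass. When each of the 20380 probe sets was tested, of which 8.67% were called higher, probe set 1449996_a_at went from 8.60, 8.51 and 8.76 to 10.27, 10.59 and 9.84 (1.61 ± 0.19 SE, adjusted p = 0.0034). Probe set 1449997_at went from 8.96, 8.77 and 9.05 to 10.68, 10.76 and 10.06 (1.58 ± 0.19 SE, adjusted p = 0.0041). Without control replicate 2 the differences were 1.55 (adjusted p = 0.0033) and 1.5 (adjusted p = 0.0039), where 11.5% of all probe sets were called higher. In both, the groups did not overlap and the order of the control arrays was that of Myh7, with replicate 2 lowest and replicate 3 highest. Which Tpm3 transcripts each probe set reads was not analysed here.

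**Figure D3:**
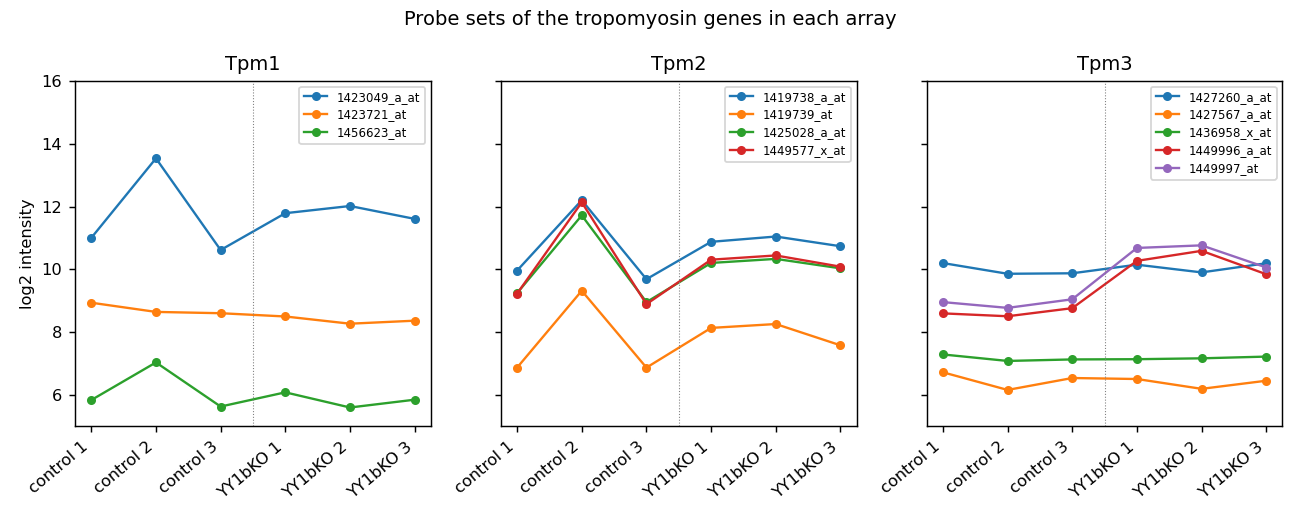
Log2 intensity (y axis) of every probe set of Tpm1, Tpm2 and Tpm3 in each array, 1 line per probe set. The 4 Tpm2 probe sets and the brightest of Tpm1 peak in control replicate 2, while 2 of the 5 Tpm3 probe sets step up by 1.58 and 1.61 in the YY1bKO arrays and the other 3 stay level.

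The other 2 tropomyosin genes, used in both fibre types, were not called. The brightest Tpm1 probe set read 13.54 in control replicate 2, against 10.62 to 12.02 in the other 5 arrays, and Tpm2 read 9.96, 12.20 and 9.69 against 10.88, 11.05 and 10.74. Control replicate 2 was above every YY1bKO array in both, and control replicates 1 and 3 were below. Over all members, 11 of the 60 probe sets, from 8 genes, were called higher and 0 lower, where 8.67% of all probe sets were called higher and 7.29% lower. Without control replicate 2, 46 of the 60 were called higher and 0 lower, where 11.5% of all probe sets were called higher and 11.3% lower. The 13 genes with several probe sets were not uniform. A second Tpm1 probe set read 8.94, 8.64 and 8.60 in control and 8.50, 8.27 and 8.37 in YY1bKO arrays, without a peak in control replicate 2 (-0.35 ± 0.12 SE, adjusted p = 0.0933). A further probe set each of Mb and Myh1 was dim, with group means from 4.64 to 5.10. Myh1 had 3 probe sets, of which 1 was dim and 1 was called higher without control replicate 2.

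The last slow gene, Myoz2, encodes calsarcin-1, a Z-disc protein of slow and heart muscle. Its levels were 7.13, 8.85 and 7.08 in control and 8.77, 9.03 and 7.94 in YY1bKO arrays, and with control replicate 2 among the YY1bKO values it was not called (0.90 ± 0.52 SE, adjusted p = 0.2926). Control replicate 2 stood 1.75 log2 units above the mean of the other 2 control arrays, the widest such gap among the 9 slow genes.

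Fast-fibre transcripts gave another order of arrays. In 11 of 11 fast genes control replicate 2 was the highest array, and all 3 YY1bKO arrays lay between it and control replicates 1 and 3, an order found in 4.20% of all genes. With control replicate 2 set aside, all YY1bKO arrays above both other controls is an order found in 30.5% of all genes. The median gap of control replicate 2 over the mean of the other 2 control arrays was 2.59 log2 units, or 6.02-fold, over the fast genes, and -0.18 over the slow genes. The SD within the control group was accordingly 0.99 to 2.11 over the fast genes, with a median of 1.5, against a median of 0.28 over the slow genes and 0.14 over all genes. The YY1bKO arrays were closer to each other, with a median SD of 0.26 over the fast genes.

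The fast myosin heavy chains differed in how far control replicate 2 stood out. Myh4, of the fastest fibres (IIb), was at 11.66, 13.83 and 11.60 in control and at 12.86, 13.09 and 12.70 in YY1bKO arrays (0.52 ± 0.58 SE, adjusted p = 0.5917). Myh1, of fast IIx fibres, was at 12.14, 13.66 and 11.15 in control and at 12.66, 12.48 and 12.44 in YY1bKO arrays (0.21 ± 0.57 SE, adjusted p = 0.8398). Myh2, of fast oxidative IIa fibres, was at 9.84, 13.13 and 9.36 in control and at 11.21, 10.56 and 10.48 in YY1bKO arrays (-0.03 ± 0.93 SE, adjusted p = 0.9890). Control replicate 2 exceeded the mean of the other controls 4.58-fold for Myh4, 4.04-fold for Myh1 and 11.5-fold for Myh2. In Myh1 and Myh2, unlike Myh4, YY1bKO replicate 1 rather than 2 was the highest of its group.

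The rest of the fast list showed the order of Myh4 in the YY1bKO arrays. Tnnt3, fast troponin T, read 11.32, 13.89 and 11.02 in control and 12.46, 12.75 and 12.27 in YY1bKO arrays (0.42 ± 0.71 SE, adjusted p = 0.7372). Pvalb encodes parvalbumin, the calcium buffer that speeds relaxation of fast fibres, and read 10.97, 13.70 and 10.84 in control and 12.24, 12.66 and 12.00 in YY1bKO arrays (0.46 ± 0.74 SE, adjusted p = 0.7193). The fast troponins Tnni2 and Tnnc2, the fast light chains Myl1 and Mylpf, the fast α-actinin Actn3 and the Z-disc protein Myoz1 had differences from 0.30 to 0.51, and none was called. The gap of control replicate 2 was largest in Actn3, at 3.65 log2 units, and among the fast list all 11 genes had YY1bKO replicate 3 as the lowest of its group.

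Genes listed here as shared by fibre types followed the array order of the fast genes, not that of the slow ones. In 12 of 12 shared genes control replicate 2 was highest and the YY1bKO arrays lay between it and the other controls, and the median gap of control replicate 2 was 2.69 log2 units, or 6.44-fold. Acta1, skeletal α-actin, was at 12.70, 14.34 and 12.50 in control and at 13.67, 13.73 and 13.52 in YY1bKO arrays (0.46 ± 0.46 SE, adjusted p = 0.5462). Ckm, the muscle creatine kinase that regenerates ATP, was at 10.82, 13.75 and 10.74 in control and at 12.29, 12.62 and 12.06 in YY1bKO arrays (0.56 ± 0.78 SE, adjusted p = 0.6755). Mb, the oxygen store myoglobin, was at 11.18, 13.61 and 10.75 in control and at 12.44, 12.33 and 12.06 in YY1bKO arrays (0.43 ± 0.70 SE, adjusted p = 0.7228). The giant spring titin (Ttn), the Z-disc proteins Actn2, Myot, Tcap and Ldb3, the M-band proteins Myom1 and Myom2 and the tropomyosins Tpm1 and Tpm2 had differences from 0.09 to 0.70, and none was called.

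Without control replicate 2, 33 of the 37 sarcomere genes were called higher and 0 lower, where 13.4% of all genes were called higher and 11.6% lower. The median difference over the members was then 1.25, against 0.04 over all genes. That array was left out because muscle genes stood apart in it, so these counts are no independent test. Of the fast genes 10 of 11 were called, with a median of 1.25, and of the shared genes 12 of 12, with a median of 1.24. The slow list gained Myoz2, so that 7 of 9 were called, and its median was 1.42. In the fast and shared lists 0 genes were called in the fits that left out any other single array. When control replicate 1 was left out, the fast list had a median of 0.07 and the shared list one of -0.04. Leaving out control replicate 3 gave medians of -0.09 and -0.19.

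Single genes show the size of that shift, with adjusted p-values from an array choice made on values of such genes. Myh4 had a difference of 1.25 ± 0.12 SE without control replicate 2, with an adjusted p of 0.0014, and Acta1 one of 1.04 ± 0.11 SE, with an adjusted p of 0.0016. Ckm had 1.54 ± 0.16 SE (adjusted p = 0.0018), Tnnt3 1.32 ± 0.16 SE (adjusted p = 0.0030), Pvalb 1.39 ± 0.19 SE (adjusted p = 0.0038) and Mb 1.31 ± 0.16 SE (adjusted p = 0.0031). Myh2 passed with 1.15 ± 0.25 SE (adjusted p = 0.0177), although its difference was -0.03 with all arrays, and Myh1 did not pass, with 0.88 ± 0.27 SE (adjusted p = 0.0549). The slow genes moved little: Myh7 went from 1.72 to 1.55, Tnnt1 from 1.59 to 1.48 and Myl3 from 1.23 to 1.27. In contrast to the fast and shared genes, the 6 called slow genes kept their calls with and without control replicate 2.

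**Figure D4:**
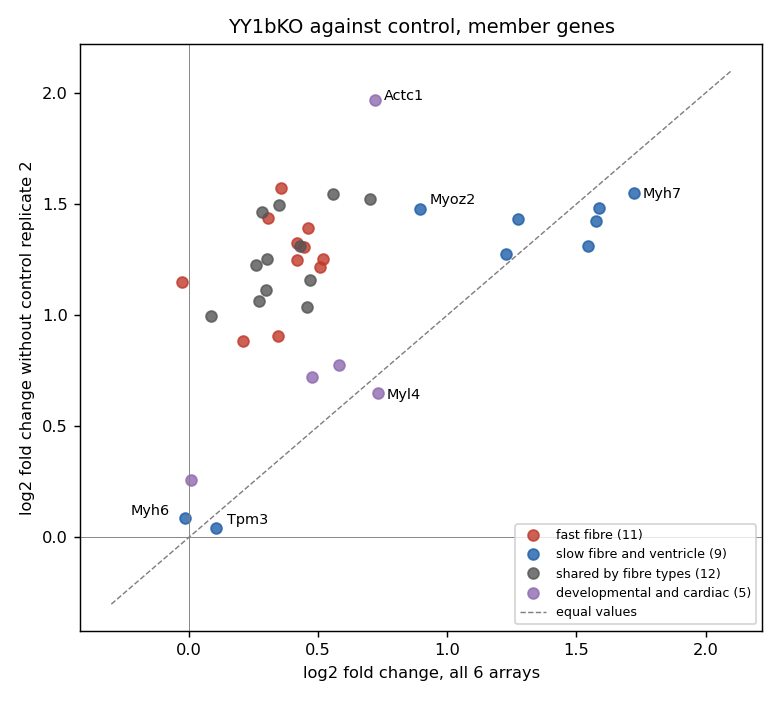
Log2 difference between YY1bKO and control arrays for the 37 sarcomere genes with all 6 arrays (x axis) and without control replicate 2 (y axis), coloured by role; the dashed line marks equal values. Most slow genes lie near the line, while the fast and shared genes lie above it, at -0.03 to 0.70 with all arrays and 0.88 to 1.57 without control replicate 2.

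Isoforms of embryonic and heart muscle were mostly dim, that is at or below a level of 6.48, the median of all probe sets. Myl4 was at 7.18, 6.75 and 6.82 in control and at 7.43, 7.79 and 7.73 in YY1bKO arrays, 1.66-fold higher (0.73 ± 0.15 SE, adjusted p = 0.0191). Its groups did not overlap, but the call ended when control replicate 3 was left out (adjusted p = 0.0551), as it did for YY1bKO replicate 2 (adjusted p = 0.0760) and for YY1bKO replicate 3 (adjusted p = 0.0763). Of the 2 Myl4 probe sets, 1 was called higher when each was tested and 1 was dim. The mean over both had a smaller difference of 0.40 (adjusted p = 0.0369). Actc1, cardiac α-actin, which immature skeletal muscle also makes, had the widest spread, with 5.83, 9.45 and 5.58 in control and 7.40, 8.60 and 7.02 in YY1bKO arrays (0.72 ± 1.03 SE, adjusted p = 0.6847). It followed the order of the fast genes, and without control replicate 2 it was called with a difference of 1.97 (adjusted p = 0.0184). The embryonic and perinatal heavy chains Myh3 and Myh8 and the cardiac troponin Tnnt2 were dim, with levels from 3.46 to 5.60, and were not called. Without control replicate 2, Myh3 and Myh8 were called higher and Tnnt2 was not.

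Within the YY1bKO group the arrays kept an order across roles. YY1bKO replicate 2 was the highest of its group in 29 of 37 sarcomere genes, against 36.4% of all genes, and YY1bKO replicate 3 the lowest in 33 of 37, against 35.9% of all genes. The slow genes shared this order with the fast genes: replicate 2 was highest in 8 of 9 and replicate 3 lowest in 7 of 9. In the control group, control replicate 2 was the highest of the 6 arrays in 11 of 11 fast genes and in 12 of 12 shared genes, against 18.3% of all genes. Among the slow genes it was highest in 1 of 9, near that share, and the 1 was Myh6, which was at background.

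Among muscle genes outside the sarcomere list, few were called with all arrays and more without control replicate 2. Of 22 measured genes of excitation-contraction coupling, which turn the nerve signal into calcium release, 2 were called higher with all arrays and 13 without control replicate 2, and 0 were called lower in either. Of all genes, 10.2% were called higher with all arrays and 13.4% without control replicate 2, so the count of 2 was near the share over all genes. Sln encodes sarcolipin, a small inhibitor of the muscle calcium pump, and was at 5.24, 4.74 and 5.39 in control and at 7.71, 8.29 and 6.81 in YY1bKO arrays, 5.57-fold higher (2.48 ± 0.37 SE, adjusted p = 0.0075). Its array order was that of Myh7, and a second Sln probe set was at background, between 3.29 and 3.66. Atp2a2, the calcium pump SERCA2 of slow and heart muscle and of non-muscle cells, was at 11.03, 11.07 and 11.20 in control and at 11.70, 11.90 and 11.48 in YY1bKO arrays (0.59 ± 0.12 SE, adjusted p = 0.0200). The fast-fibre pump Atp2a1 and the release channel Ryr1 were not called with all arrays, with 0.39 ± 0.86 SE and 0.19 ± 0.96 SE, and passed without control replicate 2, with 1.47 and 1.41.

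For the next 2 lists too, the shares of all genes called higher were 10.2% with all arrays and 13.4% without control replicate 2. Of 25 further Z-disc, M-band and filament genes, 0 were called with all arrays and 19 were called higher without control replicate 2. The 2 with the smallest p were Ankrd2, with 0.40 ± 0.35 SE, and Obsl1, with 0.07 ± 0.08 SE. Of 14 genes of muscle energy metabolism, 1 was called higher with all arrays and 11 without control replicate 2. The 1 was Slc2a4, the insulin-responsive glucose transporter GLUT4, which fat cells also make. It was at 10.49, 10.95 and 10.79 in control and 11.82, 11.76 and 11.62 in YY1bKO arrays (0.99 ± 0.13 SE, adjusted p = 0.0050). Gpd1 had the next smallest p, with a difference of -0.19 ± 0.13 SE, and was not called.

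Transcription factors that set muscle identity and fibre type were mostly not called. Of 24 measured, 0 were called higher and 1 lower, where 10.2% of all genes were called higher and 8.09% lower. The 1 was Id3, which blocks myogenic factors from binding DNA and fell by 0.61 ± 0.13 SE (adjusted p = 0.0214). Its relative Id1 had -0.43 ± 0.12 SE (adjusted p = 0.0602). Sox6, singled out after its values were seen, represses slow-fibre genes in fast fibres. Its brightest probe set was at 7.70, 8.77 and 7.86 in control and at 7.50, 7.24 and 6.97 in YY1bKO arrays (-0.88 ± 0.29 SE, adjusted p = 0.0853). Its other probe set was at 6.36, 6.12 and 6.55 in control and at 5.08, 5.04 and 5.23 in YY1bKO arrays, and was called lower when each probe set was tested (-1.22 ± 0.13 SE, adjusted p = 0.0024), where 7.29% of all probe sets were, and also without control replicate 2 (-1.34, adjusted p = 0.0007). In both, every YY1bKO array lay below every control array. Without control replicate 2, 5 of the 24 were called higher (Mef2c, Mef2d, Myf6, Myog and Tbx15) and 5 lower (Sox6, Eya2, Nfatc1, Id1 and Id3). Of all genes, 13.4% were then called higher and 11.6% lower.

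Markers of other cell types were read beside these results, since a bulk sample sums all its cells, and in it fewer cells of a type and less RNA per cell cannot be told apart. All 10 measured heart markers were dim by their mean over the 6 arrays, among them the defining atrial and ventricular genes Nppa, Myl7, Tnni3 and Mybpc3. None was called higher with or without control replicate 2, and the cardiac release channel Ryr2, called lower in both fits, fell 4.22-fold, from 7.65, 6.29 and 7.08 to 4.53, 4.88 and 5.38 (-2.08 ± 0.37 SE, adjusted p = 0.0123). The median of the list, centred on each gene's mean, lay between -0.06 and 0.08 in all 6 arrays. Over all genes, 10.2% were called higher and 8.09% lower with all arrays, and 13.4% and 11.6% without control replicate 2. Of 10 cytoplasmic actin and myosin genes, which non-muscle cells use, 0 were higher and 1, Actg1, was lower (-0.31 ± 0.08 SE, adjusted p = 0.0453). The Actg1 call was lost when control replicate 2 was left out (adjusted p = 0.0636), and then 2 others were called lower, Actn4 (-0.42, adjusted p = 0.0188) and Tpm4 (-0.57, adjusted p = 0.0279).

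The tissue label was checked with Ucp1, the heat-producing uncoupler of brown fat, which was at 13.98, 13.85 and 13.93 in control and 13.71, 13.78 and 13.86 in YY1bKO arrays and was not called (adjusted p = 0.2919). The median of 11 brown adipocyte markers, centred in the same way, lay between -0.06 and 0.09 in all 6 arrays. Of the 11, 3 were called higher and 0 lower: Ppargc1a, a coactivator of mitochondrial genes (1.09 ± 0.13 SE, adjusted p = 0.0036), Elovl3, a fatty acid elongase (1.14 ± 0.29 SE, adjusted p = 0.0396), and Zic1, a transcription factor (0.90 ± 0.14 SE, adjusted p = 0.0085). In the fit that left out control replicate 2, 3 were called higher and 1, Pparg, lower. The shares over all genes were 10.2% higher and 8.09% lower with all arrays, and 13.4% and 11.6% without control replicate 2. Smooth muscle markers had medians from -0.42 to 0.35, macrophage markers from -0.59 to 0.21 and endothelial markers from -0.35 to 0.37, and the endothelial medians were above 0 in all 3 control arrays and below 0 in all 3 YY1bKO arrays. Of these, 1 of 9 smooth muscle markers, Actg2, was called higher, and 0 of 7 macrophage markers were called. Cdh5, Kdr and Tek, 3 of the 7 endothelial markers, were called lower. With control replicate 2 left out these counts were 2 higher for smooth muscle, 0 for macrophages and 4 lower for endothelium. The medians of the 25 Z-disc and filament genes and the 14 energy genes, in contrast, peaked in control replicate 2, at 1.68 and 1.77. That array was the highest in 24 of the 25 and 12 of the 14, and in all fast and shared sarcomere genes. The part that the amount of skeletal muscle in each sample plays in the levels of the sarcomere genes was not tested.

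**Figure D5:**
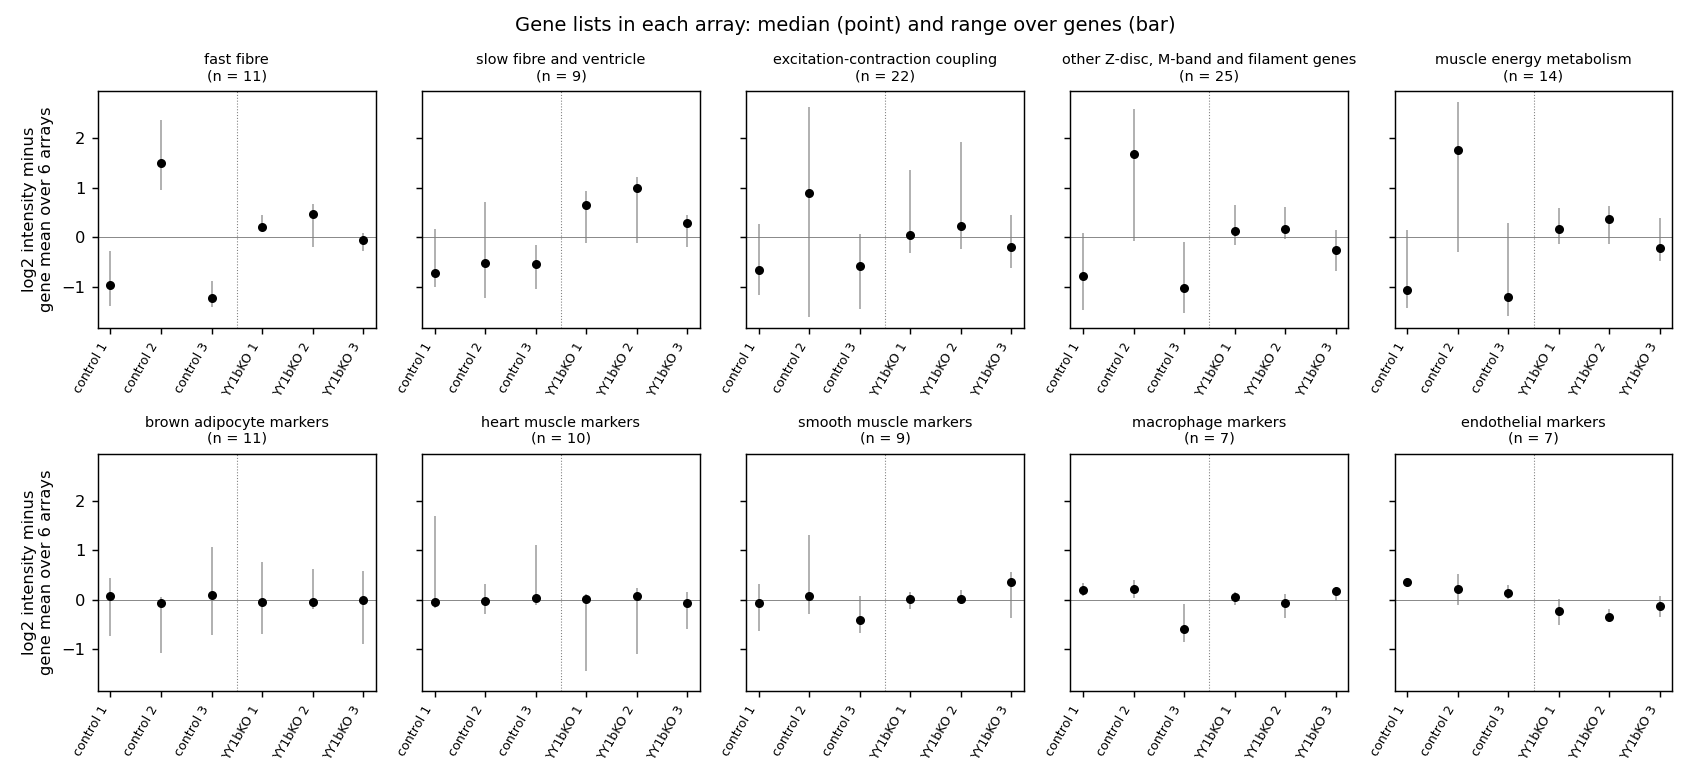
Gene lists in each array, as log2 intensity minus the gene's mean over the 6 arrays (y axis); points are the median over genes and bars the range. Medians of the fast, Z-disc and energy lists peak in control replicate 2 and that of the slow list steps up between the groups. The brown adipocyte and heart medians stay between -0.06 and 0.09 in every array.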

How the data were processed

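Total RNA of brown adipose tissue from 6 samples, 3 control and 3 YY1bKO, was labelled and hybridised to 1 array each. The deposited values are intensities on a linear scale, made by the authors with RMA, per the submitters' processing notes, which the sources used here name without version or options. RMA corrects background, brings the arrays to 1 distribution and summarises probes, which can hide a shift of most genes and shrinks differences of dim probe sets. The deposited intensities were converted to log2 here, with no pseudocount.

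Of 22690 probe sets, 64 Affymetrix controls were left out. Of the 22626 left, 20380 had 1 symbol in the platform annotation, 691 several and 1555 none here. Each of 12393 genes was represented by its brightest probe set. Groups were compared with limma 3.58.1 in R 4.3.3 (lmFit, eBayes), two-sided, and adjusted by Benjamini-Hochberg over all genes. The script was tested on simulated data. Having only 3 arrays in a group limits the precision. The labels do not state that the replicates came from different animals, and p-values then reflect only the spread of these samples, which may be technical.

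Members and gene lists were chosen with earlier results of these data known. Array values were given for called members and for Myh1, Myh2, Myh4, Myh7, Acta1, Ckm, Pvalb, Tnnt3, Tnni1, Tnnc1 and Mb. Of the other muscle and regulator lists, up to 4 called genes by smallest p were given, and at least the 2 with smallest p. Of the lists for other cell types, genes called with all arrays were named. Lists of white adipocyte, red blood cell and nerve markers were also drawn up and are not reported here. Other genes were named after their values were seen. Alternatives were the mean over probe sets, no dim genes, quantile normalization, median centring, an offset of 50, a trended robust prior, array weights, the replicate block, a fold of at least 1.5, every probe set, and leaving out each array.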

Additional observations from a re-analysis of the deposited data

How the results depend on the processing

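Over 15 alternatives, Myh7, Tnnt1, Tnnc1, Myl2 and Myl3 kept their direction and call in every one, with differences of 1.55 to 1.93 for Myh7 and adjusted p from 0.00245 to 0.0314. Tnni1 lost its call in 1 and Myl4 in 4. The number of members called higher was 33 without control replicate 2 and ranged from 6 to 33 over the fits that left out 1 array, in which 547 to 1661 of all 12393 genes were called higher. For 19 genes the difference had the opposite sign to that of all 6 arrays in at least 1 alternative. Among those opposite-signed differences the called one was that of Myh2 without control replicate 2. The 19 ranges over the fits that left out 1 array were -0.19 to 1.11 for Actn2, -0.25 to 1.57 for Actn3, -0.26 to 1.5 for Ldb3, -0.12 to 1.31 for Mb, -0.37 to 0.88 for Myh1, -0.73 to 1.15 for Myh2, -0.12 to 0.0864 for Myh6, -0.0123 to 0.91 for Myl1, -0.0873 to 1.25 for Mylpf, -0.18 to 1.25 for Myom1, -0.33 to 1.46 for Myom2, -0.28 to 1.23 for Myot, -0.30 to 1.43 for Myoz1, -0.0370 to 1.39 for Pvalb, -0.0382 to 1.31 for Tnni2, -0.15 to 0.26 for Tnnt2, -0.11 to 1.32 for Tnnt3, -0.46 to 1.00 for Tpm1 and -0.20 to 1.06 for Tpm2. The cause was not tested beyond the array left out.

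Other changes of sign were in differences that were not called. With the mean over probe sets, Myh6 had 0.00052, Tpm1 -0.20 and Myoz1 -0.0095. Quantile normalization gave 0.00049 for Myh2 and -0.0503 for Tnnt2, the offset of 50 gave -0.0049 for Tnnt2, and array weights gave 0.70 for Myh2 and 0.0269 for Myh6. The mean over probe sets gained Tpm3 (0.64, adjusted p = 0.0083), and array weights gained Myh8 (0.65) and Myoz2 (1.28); control replicate 2 had a weight of 0.295.

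The labels give both groups replicate numbers 1 to 3. Deviations of same-numbered arrays correlated at -0.25, 0.11 and 0.26, and those of differently numbered arrays at -0.37 to 0.35. With 3 arrays in each group, these correlations cannot settle whether the numbers pair the samples. With the replicate number as a block, 6 members were called higher, Myl4 being lost (adjusted p = 0.0680), and of all genes 671 were higher and 639 lower, against 1267 and 1003 without it. Of the 37 members, 4 were dim (Myh3, Myh6, Myh8 and Tnnt2), and a difference there is hard to see on these arrays.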

Other observations

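Control replicate 2 also lay apart in genes outside the sarcomere list, some of muscle and some not, named here after their values were seen. In that array 14 genes lay at least 2-fold below each of the other 5 arrays, and 0 of the 14 were among the 37 sarcomere genes or the 61 further muscle genes. Hoxc8, a homeobox gene of body position, was at 4.13 there and at 6.91 to 7.97 in the other 5. The clock genes Per1 and Per2 were at 6.35 and 5.21, against at least 7.83 and 6.54 elsewhere. The heat shock gene Hspa1b was at 9.17, against at least 10.58, and the metallothionein Mt2 at 9.64, against at least 11.35. Among genes above the other arrays, Mybph, a myosin-binding protein of skeletal muscle, was at 8.03, against at most 4.42, and Fgfbp1, which carries fibroblast growth factors, was at 7.26, against at most 4.06.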
